A study of Homo sapiens with 6 samples.

Results

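Aminoacyl-tRNA synthetases are the enzymes that join each amino acid to its transfer RNA. Members were the genes of the count table whose symbol is that of a synthetase, by a rule on the name alone (a letter for the amino acid, ARS and a number from 1 to 3, together with EPRS1, FARSA and FARSB). The rule found 35 of the 16199 genes. Of these, 19 encode cytosolic enzymes (names ending in 1, with EPRS1, FARSA and FARSB), 15 encode mitochondrial enzymes (names ending in 2), and TARS3, a further threonyl-tRNA synthetase gene, belongs to neither set. In RefSeq 38 symbols fit the rule, and SARS2, VARS1 and VARS2 were not analysed here. All 35 passed the filter on low counts, and the lowest count of any member in any library was 163, for CARS1.

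The libraries came from H1, an established human embryonic stem cell line, of 3 Dicer genotypes with 2 libraries each: homozygous for the S1344L substitution, hemizygous for it, and wild-type. Dicer cuts microRNA precursors, and the mutants were made with CRISPR-Cas9. The protocol writes the mutants as pm/pm and pm/fs, terms that the labels do not expand, and the number of clones behind a genotype is not given in the sources used here. Cells of all 3 genotypes had grown for 10 days without doxycycline before 2 exposures to ultraviolet light (254 nm, 150 mJ/cm2). RNA bound to Ago2, the Argonaute protein that carries microRNAs, was then recovered by iCLIP, in which light joins a protein to the RNA it touches before the protein is pulled down. A level is therefore a gene's count of Ago2-bound reads over the library total scaled by its TMM factor, in CPM. RNA abundance and contact with Ago2 cannot be told apart in it, nor can fewer cells of a type and less RNA per cell.

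Cytosolic synthetases charge the transfer RNAs used by cytoplasmic ribosomes, while the mitochondrial enzymes, also encoded in the nucleus, are imported to charge mitochondrial transfer RNAs. Several cytosolic enzymes sit in the multisynthetase complex, held together by the scaffold proteins AIMP1, AIMP2 and EEF1E1. The enzymes fall into class I and class II by the fold of their catalytic domain, and EPRS1, which carries a glutamyl and a prolyl enzyme in a single chain, holds both. GARS1 and KARS1 each supply both compartments. When amino acids run short, the transcription factor ATF4 raises many cytosolic synthetase genes together with amino acid transporters and enzymes of amino acid synthesis. ATF4 acts through C/EBP-ATF response elements (CARE).

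Depth ranged between 38164848 and 52924532 counts per library. Stem cell markers summed to 7801 and 7318 CPM in homozygous libraries (replicate 1, then replicate 2, here and below), 8179 and 7622 CPM in hemizygous libraries and 6931 and 6869 CPM in wild-type libraries, with all 10 listed markers measured. Fibroblast and stromal markers, of which 7 of 10 were measured, summed to 654.5 and 696 CPM in homozygous, 1112 and 722 CPM in hemizygous and 1085 and 807 CPM in wild-type libraries. COL12A1, a collagen gene of that list, had 16.0 and 11.4 CPM in homozygous, 264 and 7.84 CPM in hemizygous and 205 and 10.9 CPM in wild-type libraries. Hemizygous replicate 1 and wild-type replicate 1 thus stood apart from the other 4 libraries in this gene. Neuroectoderm markers summed to 43.1 and 46.1 CPM in homozygous, 60.6 and 77.2 CPM in hemizygous and 32.6 and 28.4 CPM in wild-type libraries. Mesendoderm markers, mostly KDR, summed to 379 and 363, 335 and 395, and 260 and 277 CPM in the same order. Neither list was measured in full. Both sums were higher in each mutant library than in either wild-type library. The neuroectoderm marker MAP2 was lower in homozygous than wild-type libraries (log2 fold change -0.42). The labels do not tell whether the 2 libraries of a genotype are from different cultures. The p-values thus reflect the spread among these 6 libraries alone, which may be technical.

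Promoters of the family were searched for the CARE letters, because many cytosolic synthetase genes are described targets of ATF4. RefSeq windows (GRCh38.p14, 250 bases before to 50 bases after the start of transcription) were given for 29 members, 16 cytosolic and 13 mitochondrial. TGATGNAA, where N is any base, was sought on both strands. It stood in 8 of the 29 (27.6%), against 4.46% of all 27305 genes with a window and 3.62% of all 34943 windows. The 8 matches are printed with 16 bases on each side, 5′ to 3′ on the strand of the gene, with the matched letters in capitals (TGATGNAA itself in NARS1 and YARS2, its reverse complement in the others).
AARS1 (chr16:70289670-70289709, minus strand): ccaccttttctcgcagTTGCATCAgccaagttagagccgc
CARS1 (chr11:3057402-3057441, minus strand): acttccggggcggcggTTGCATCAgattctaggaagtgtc
GARS1 (chr7:30594829-30594868, plus strand): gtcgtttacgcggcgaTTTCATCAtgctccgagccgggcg
IARS1 (chr9:92293687-92293726, minus strand): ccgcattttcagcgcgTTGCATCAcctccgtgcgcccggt
MARS1 (chr12:57488048-57488087, plus strand): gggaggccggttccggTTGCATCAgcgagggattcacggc
NARS1 (chr18:57621799-57621838, minus strand): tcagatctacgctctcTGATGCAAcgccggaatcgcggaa
TARS1 (chr5:33440951-33440990, plus strand): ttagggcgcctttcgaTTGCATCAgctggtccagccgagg
YARS2 (chr12:32756071-32756110, minus strand): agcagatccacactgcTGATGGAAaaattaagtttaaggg

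The first matched base lay 187 bases before the start in AARS1, 33 before it in GARS1, 13 in IARS1, 4 in MARS1 and 2 in CARS1. In TARS1 it lay 2 bases after the start and in NARS1 14 bases after it, while in YARS2, the mitochondrial tyrosyl enzyme, it lay 197 bases before. Of the 16 cytosolic windows 7 held the letters (43.8%), all of them among the 10 windows of described ATF4 targets (70.0%) and none among the 6 other cytosolic windows. The mitochondrial set had them in 1 of 13 windows (7.69%). A match is a run of letters and not a measured site. Genes may have been described as ATF4 targets partly for such letters, so the split is no independent test of the list.

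Other promoter letters were sought in the same windows, and their shares were not tested. The ETS core CCGGAAG was found in 15 of the 29 windows (51.7%), against 12.2% of all genes. The letters bound by NRF1 were found in 6 windows (20.7%), against 6.98% of all genes. The E-box CACGTG was found in 4 (13.8%), against 8.77%, a small difference for 29 windows. Both strands were searched, and matches of different motifs were allowed to overlap.

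HARS1 and HARS2, the cytosolic and mitochondrial histidyl-tRNA synthetase genes, are divergent neighbours whose starts lie 85 bases apart. The stretch between them is shown because it is the only one in which a cytosolic and a mitochondrial member share a promoter region. It is given on the plus strand with 20 further bases at either end, and the 2 ETS cores in it are in capitals.
HARS1 to HARS2 (chr5:140691350-140691475, plus strand): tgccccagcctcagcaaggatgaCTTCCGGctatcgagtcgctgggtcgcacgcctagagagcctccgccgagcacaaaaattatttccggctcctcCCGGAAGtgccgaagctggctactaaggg

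Levels of the family varied little between libraries. The summed level of the cytosolic genes was 4372 and 3960 CPM in homozygous, 4716 and 4065 CPM in hemizygous and 4608 and 4102 CPM in wild-type libraries. For the mitochondrial genes it was 817 and 737 CPM in homozygous, 849 and 763 CPM in hemizygous and 864 and 761 CPM in wild-type libraries. In each genotype and each compartment replicate 1 had the higher sum, and the 3 genotypes overlapped.

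The highest of the 6 libraries exceeded the lowest by a median of 1.24-fold over the 35 members, against 1.44-fold over all genes. Row totals of all genes reached down to 132, while the lowest member count in a single library was 163. The sets were not matched for level, on which this ratio also depends. The median was 1.30-fold for the cytosolic and 1.24-fold for the mitochondrial genes. YARS2 was the steadiest member (1.06-fold). Its levels were 40.8 and 43.0 CPM in homozygous, 40.6 and 41.1 CPM in hemizygous and 42.5 and 41.2 CPM in wild-type libraries. AARS1, the cytosolic alanyl enzyme, had 399.8 and 392 CPM in homozygous, 408 and 388 CPM in hemizygous and 412 and 396 CPM in wild-type libraries, so that genotypes overlapped within a narrow range. Levels of different genes were not ranked, since transcript lengths were not given and a longer transcript collects more reads.

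**Figure D1:**
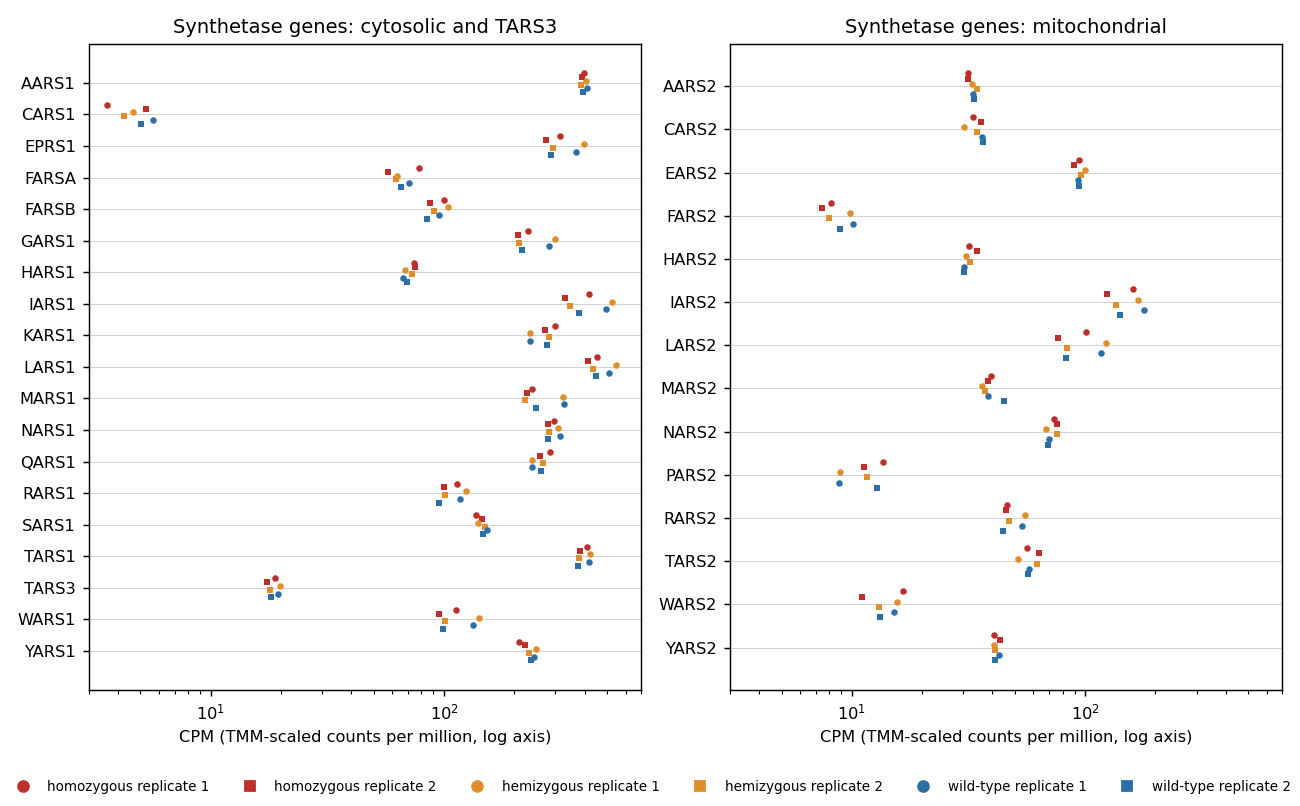
Level of 33 synthetase genes in each of the 6 libraries (x axis, TMM-scaled CPM on a log axis), with cytosolic genes and TARS3 on the left and mitochondrial genes on the right. Circles are replicate 1 and squares replicate 2. The 6 points of a gene lie close together, and closest in YARS2, where the highest is 1.06-fold the lowest.

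The first question of the design is whether the homozygous S1344L genotype changed Ago2-bound RNA. No synthetase gene passed the test. In edgeR's quasi-likelihood test 0 of 35 members were called at an adjusted p under 0.05 in homozygous against wild-type libraries, and 0 of all 16199 genes (background 0%). At an unadjusted p under 0.05 there were again 0 members, against 2.69% of all genes, and DESeq2 called 0 members and 10 genes. The genotype model leaves out the replicate number, so differences between replicates add to its spread. The SE of EPRS1 was 0.20 here and 0.08 for replicate 1 against replicate 2, in the model that holds the replicate number. In all genotype comparisons, a gene that was not called is thus not shown to be unchanged. Fold changes on the log2 scale were above 0 in 12 members and below 0 in 23, with a median of -0.05, against 49.3% above 0 and a median of -0.00 over all genes. The median was -0.04 over the 19 cytosolic and -0.07 over the 15 mitochondrial genes.

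Both homozygous libraries lay outside the range of both wild-type libraries in 10 members (28.6% of 35), against 27.9% of all genes. Of the 10, 4 were higher in the homozygous libraries (HARS1, HARS2 and NARS2 among them), where the background was 14.2%. The other 6 were lower (AARS2, CARS2, FARS2, MARS1, SARS1 and YARS1), where the background was 13.6%. The shares of members were thus close to those of all genes.

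MARS1, the cytosolic methionyl enzyme that also charges the initiator transfer RNA, had the largest negative fold change. Its levels were 238 and 227 CPM in homozygous, 323 and 223 CPM in hemizygous and 326 and 249 CPM in wild-type libraries. Replicate 1 of the hemizygous and wild-type cells was high, and the remaining 4 libraries were alike. The log2 fold change against wild-type was -0.31 (SE 0.22), and the edgeR adjusted p was 1.00. The gene overlaps ARHGAP9 and DDIT3 in the RefSeq annotation, so some of its reads could belong to either.

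FARS2, the mitochondrial phenylalanyl enzyme, had 8.13 and 7.46 CPM in homozygous, 9.78 and 8.01 CPM in hemizygous and 10.1 and 8.93 CPM in wild-type libraries. Its log2 fold change against wild-type was -0.29 (SE 0.20). It overlaps LYRM4, whose reads cannot be kept apart from its own when the use of strand is not stated. YARS1, the cytosolic tyrosyl enzyme, had 209.8 and 223 CPM in homozygous, 247 and 231 CPM in hemizygous and 243 and 235 CPM in wild-type libraries. Both homozygous libraries lay below the other 4, and the log2 fold change was -0.14 (SE 0.12). YARS1 shares 797 bases with S100PBP, so some of its reads could belong to that gene.

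HARS1 and HARS2, which share the stretch of promoter printed above, had similar fold changes in every comparison. HARS1 had 74.5 and 75.0 CPM in homozygous, 68.3 and 72.9 CPM in hemizygous and 66.9 and 69.5 CPM in wild-type libraries. HARS2 had 31.7 and 34.4 CPM in homozygous, 30.7 and 32.1 CPM in hemizygous and 30.3 and 30.3 CPM in wild-type libraries. On the log2 scale the fold changes of HARS1 and HARS2 were 0.13 and 0.12 for homozygous against wild-type, 0.05 and 0.05 for hemizygous against wild-type, and -0.05 and -0.06 for replicate 1 against replicate 2. None of these passed the test.

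**Figure D2:**
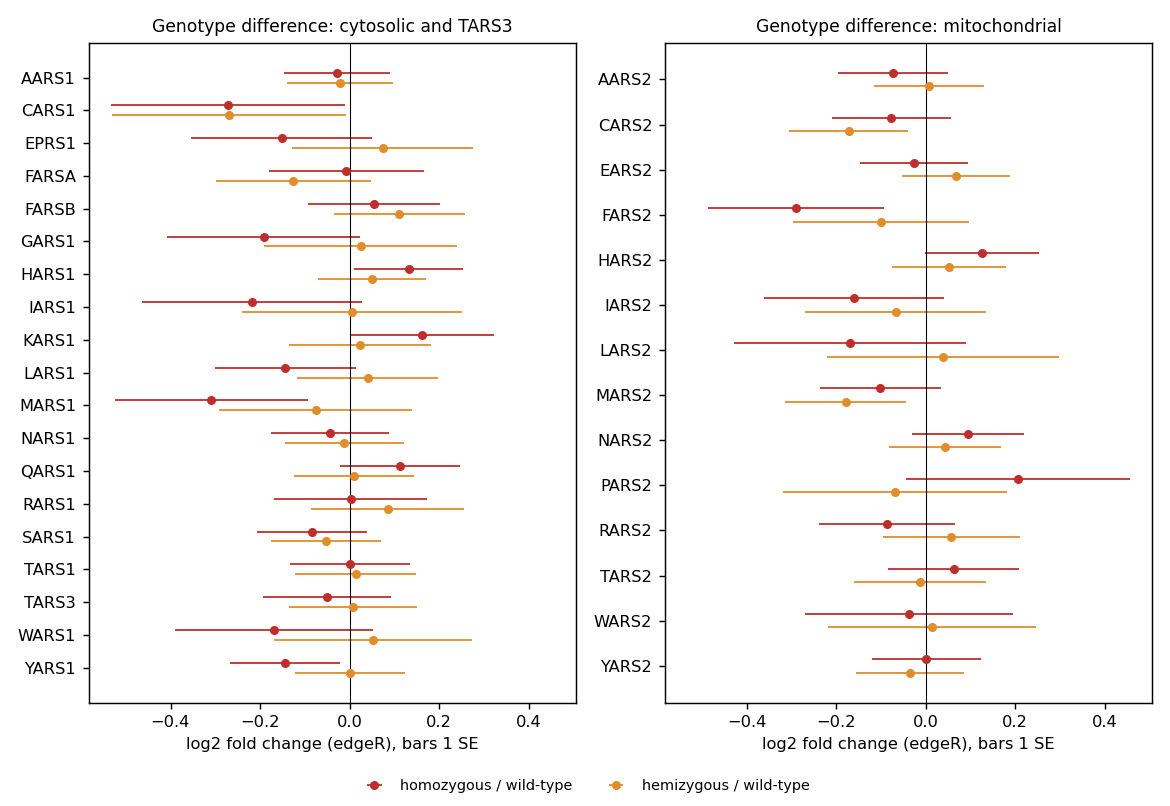
Log2 fold change of 33 synthetase genes against wild-type from edgeR (x axis, bars 1 SE), for homozygous (red) and hemizygous (orange) libraries, with cytosolic genes and TARS3 on the left and mitochondrial genes on the right. MARS1 at -0.31 is the lowest of the homozygous comparison, and none of the genes passed the test.

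Hemizygous against wild-type libraries gave no called member either. Of the 35 members 0 were called by edgeR (background 0%), and 0 had an unadjusted p under 0.05, against 0.87% of all genes. DESeq2 called 0 members and 7 genes. Of the members 21 had a log2 fold change above 0 and 14 below 0, against 49.1% of all genes above 0. The median was 0.01 over the cytosolic and -0.01 over the mitochondrial genes, against -0.00 over all genes. Libraries did not overlap in 7 members (20.0%), against 17.3% of all genes: EARS2 and HARS2 were higher in the hemizygous libraries (background 8.13%), and CARS1, CARS2, FARSA, MARS2 and YARS2 lower (background 9.21%).

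MARS2, the mitochondrial methionyl enzyme, had 36.2 and 37.3 CPM in hemizygous libraries and 38.4 and 44.9 CPM in wild-type libraries. Its log2 fold change was -0.18 (SE 0.14, edgeR adjusted p = 1.00), and the homozygous libraries had 39.3 and 38.3 CPM. CARS2, the mitochondrial cysteinyl enzyme, had 30.3 and 34.2 CPM in hemizygous libraries and 36.1 and 36.6 CPM in wild-type libraries. Its log2 fold change was -0.17 (SE 0.13). Its homozygous libraries were also below wild-type, at 33.2 and 35.8 CPM. CARS2 overlaps ING1, so its reads are not certain to be its own.

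With both mutants set against wild-type, 0 members were called by edgeR (background 0%) and 0 had an unadjusted p under 0.05, against 1.94% of all genes. All 4 mutant libraries lay on one side of both wild-type libraries in 2 members (5.71%), against 8.87% of all genes. HARS2 was higher in the mutants by 0.09 on the log2 scale (background 4.29%), and CARS2 was lower, with a log2 fold change of -0.12 (background 4.58%). Fold changes were above 0 in 12 members and below 0 in 23, against 48.2% of all genes above 0. This comparison uses the same wild-type libraries as the preceding ones.

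Homozygous against hemizygous libraries gave 0 members called by edgeR (background 0%) and 0 with an unadjusted p under 0.05, against 0.765% of all genes. Fold changes were again above 0 in 12 members and below 0 in 23, against 49.9% of all genes above 0. Libraries did not overlap in 6 members (17.1%), against 21.4% of all genes: HARS1 and MARS2 were higher in the homozygous libraries (background 11%), and AARS2, EARS2, RARS2 and YARS1 lower (background 10.4%). The lowest fold change was that of MARS1, at -0.23. These libraries are also part of the comparisons with wild-type.

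**Figure D3:**
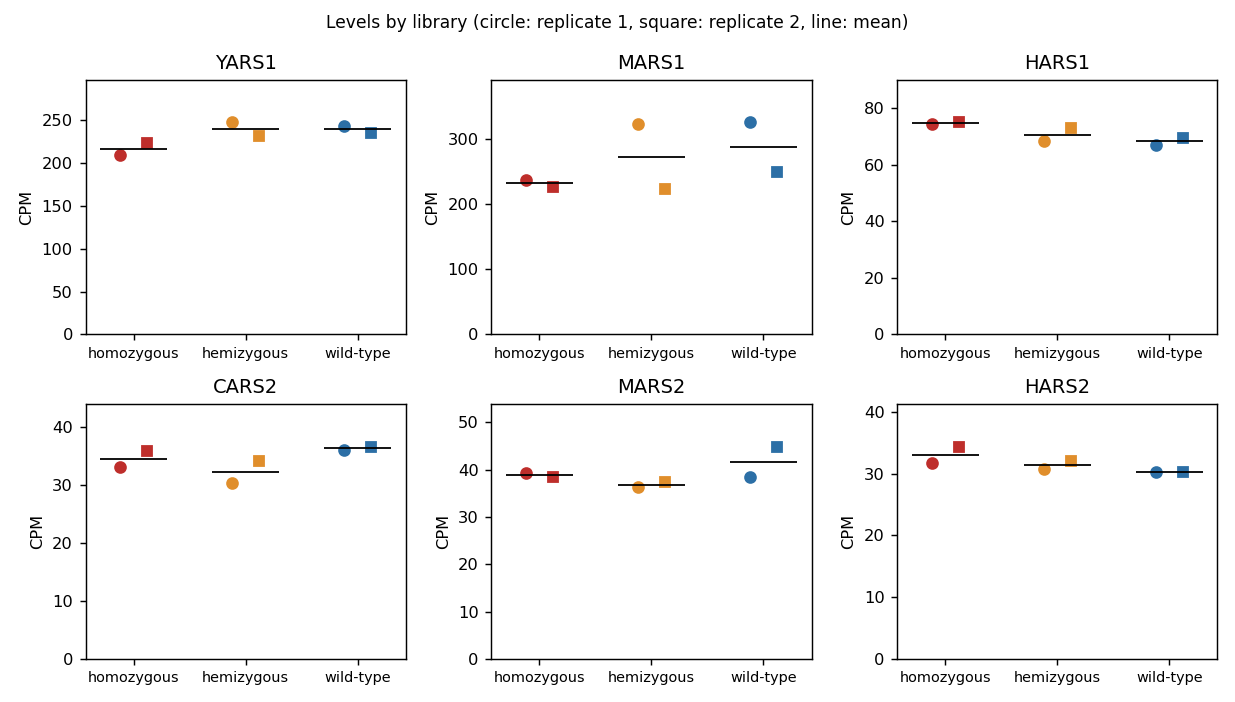
Levels (y axis, CPM from 0) of 6 synthetase genes in homozygous, hemizygous and wild-type libraries. Circles are replicate 1, squares replicate 2 and lines the mean of both. Both homozygous points of YARS1 (209.8 and 223 CPM) lie below its other libraries, while the points of MARS1 are split by replicate in hemizygous and wild-type cells.

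Described ATF4 targets made up 12 of the measured cytosolic genes (13 are listed). Their summed level was 3222 and 2972 CPM in homozygous, 3758 and 3041 CPM in hemizygous and 3655 and 3111 CPM in wild-type libraries. Of the 12, 11 had a log2 fold change below 0 in homozygous against wild-type libraries, with a median of -0.15, and none passed the test. The median difference was -0.22 between the libraries numbered 1, with all 12 below 0, and -0.06 between those numbered 2, with 10 below 0. Without wild-type replicate 1 the median was 0.0003, and 6 of the 12 were below 0. Leaving out that library sets both homozygous libraries against wild-type replicate 2 alone, so that replicate numbers are no longer matched. Wild-type replicate 1 is one of the 2 libraries with high COL12A1, and all 7 measured stromal markers had a log2 fold change below 0 in this comparison (median -0.44). Their part in the result was not tested.

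Against hemizygous libraries, all 12 of these genes were below 0 in the homozygous libraries, with a median of -0.16. Between libraries numbered 1 all 12 were below 0 (median difference -0.30), and between those numbered 2 there were 8 (median difference -0.03). Without hemizygous replicate 1, the other library high in COL12A1, the median was 0.04 and 3 of the 12 were below 0, again with replicate numbers unmatched. In hemizygous against wild-type libraries 7 of the 12 were above 0, with a median of 0.00. The other 7 cytosolic genes (FARSA, FARSB, HARS1, KARS1, QARS1 and RARS1 among them) had 6 fold changes above 0 in homozygous against wild-type libraries, with a median of 0.11. Without homozygous replicate 1 their median was 0.04, with 4 above 0.

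ATF4 pathway genes outside the family were set beside them, and none passed the test. Of the 15 measured (16 listed), 12 had a log2 fold change below 0 in homozygous against wild-type libraries, with a median of -0.17. In 6 of them both homozygous libraries were below both wild-type libraries (ASNS, TRIB3, CHAC1, PSAT1, SLC7A11 and SLC3A2), against 13.6% of all genes. Both were above them in MTHFD2, against 14.2% of all genes. In each of the 6 lower genes wild-type replicate 1 was above wild-type replicate 2. TRIB3 had 9.08 and 9.08 CPM in homozygous and 13.3 and 9.75 CPM in wild-type libraries. ASNS, asparagine synthetase, had 2.07 and 2.51 CPM in homozygous, 5.19 and 2.66 CPM in hemizygous and 6.32 and 3.27 CPM in wild-type libraries. SLC7A11, the cystine transporter, had 16.5 and 16.2 CPM in homozygous, 58.5 and 16.5 CPM in hemizygous and 56.7 and 23.3 CPM in wild-type libraries. ATF4 itself had 304 and 363 CPM in homozygous, 335 and 357 CPM in hemizygous and 361 and 369 CPM in wild-type libraries, with overlap between homozygous and wild-type.

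**Figure D4:**
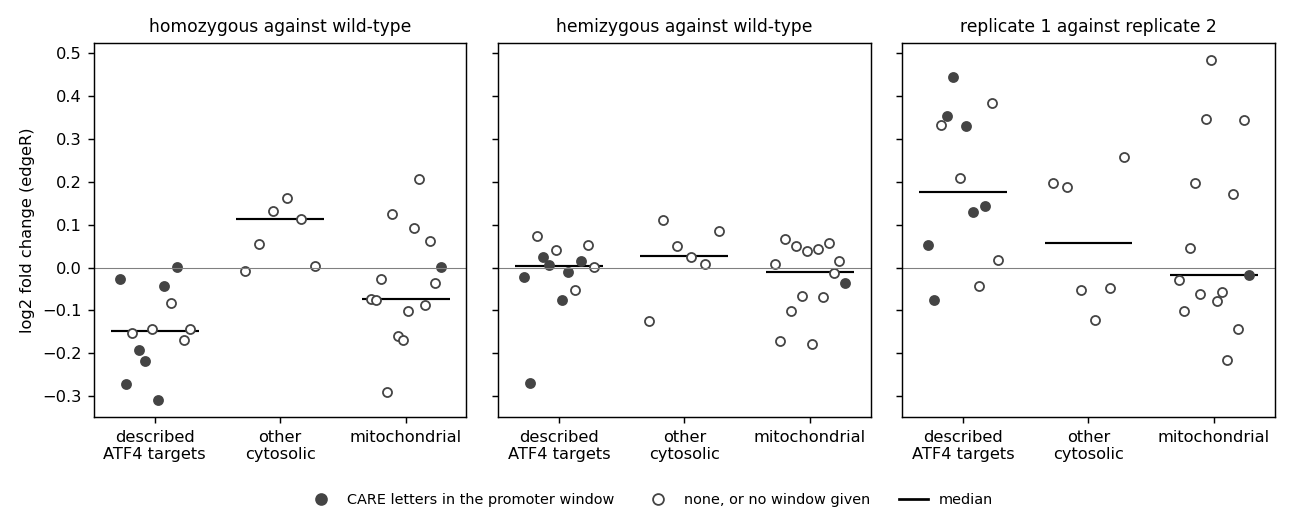
Log2 fold change (y axis, edgeR) of the described ATF4 targets, the other cytosolic genes and the mitochondrial genes in 3 comparisons. Points are single genes, and lines are the medians over the whole set. Filled points have the CARE letters in the promoter window. In homozygous against wild-type libraries the ATF4 targets have a median of -0.15 and the other cytosolic genes of 0.11, and both lie near 0 in hemizygous against wild-type libraries.

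The libraries also carry a replicate number, and levels were compared across it within genotype. Here 8 members were called by edgeR, each higher in replicate 1, among them LARS2, IARS1, WARS1, GARS1, IARS2, EPRS1 and RARS1. They are 22.9% of the 35, against 20.5% of all genes called and 12% called higher. Lower in replicate 1 were 0 members, against 8.5% of all genes. At an unadjusted p under 0.05 there were 12 members (34.3%), against 38.6% of all genes. The median log2 fold change of replicate 1 over replicate 2 was 0.11 over the members, with 22 above 0 (62.9%), and -0.00 over all genes, with 49.8% above 0. Replicate numbers did not overlap in 15 members, against 39.6% of all genes. All 3 replicate 1 libraries lay above all 3 of replicate 2 in 15 members (42.9%), against 20.9% of all genes, and below them in 0 members, against 18.7%.

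The calls depended on the hemizygous libraries. With either of them left out, which takes that genotype out of this comparison, edgeR called 0 members, and 1 or 3 of all genes. With either wild-type library left out it called 3 of the 35 members, IARS1 and LARS2 among them, and 1140 or 1077 of the 16199 genes. With either homozygous library left out it called 13 members, and 6266 or 6254 of all genes, against 3322 genes with all libraries. Of the 13, 11 were higher in replicate 1 and 2, KARS1 and PARS2, lower. With library size or upper-quartile scaling 5 members were called, and 3299 or 3449 of all genes. EPRS1, GARS1 and RARS1 were not among the 5.

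Among the mitochondrial enzymes 3 of 15 were called higher in replicate 1, against 12% of all genes. LARS2, the mitochondrial leucyl enzyme, had 101 and 76.8 CPM in homozygous, 122 and 83.4 CPM in hemizygous and 117 and 82.6 CPM in wild-type replicates 1 and 2. Its log2 fold change was 0.48 (SE 0.07, edgeR adjusted p = 0.0127). IARS2, the mitochondrial isoleucyl enzyme, had 161 and 124 CPM in homozygous, 169 and 135 CPM in hemizygous and 178 and 140.5 CPM in wild-type replicates 1 and 2. Its fold change was 0.35 (SE 0.07, edgeR adjusted p = 0.0205). In both genes the groups did not overlap. The microRNA hairpins MIR215 and MIR194-1 lie on the minus strand within the span of IARS2, and neither has a row of its own in the table.

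Of the cytosolic enzymes 5 of 19 were called higher in replicate 1, against 12% of all genes. IARS1, the isoleucyl enzyme of the multisynthetase complex, had 419 and 329 CPM in homozygous, 526 and 347 CPM in hemizygous and 492 and 377 CPM in wild-type replicates 1 and 2. Its log2 fold change was 0.44 (SE 0.08, edgeR adjusted p = 0.0174). WARS1, the tryptophanyl enzyme, had 112 and 94.9 CPM in homozygous, 141 and 101 CPM in hemizygous and 133 and 99.5 CPM in wild-type replicates 1 and 2, a fold change of 0.38 (SE 0.08, edgeR adjusted p = 0.0222). The gap was narrowest in the homozygous cells for both genes.

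GARS1, which supplies glycyl-tRNA in both compartments, had 230.0 and 206 CPM in homozygous, 298 and 209 CPM in hemizygous and 283 and 215 CPM in wild-type replicates 1 and 2. Its log2 fold change was 0.35 (SE 0.09, edgeR adjusted p = 0.0340). EPRS1 had 314 and 274 CPM in homozygous, 396 and 292 CPM in hemizygous and 367 and 286 CPM in wild-type replicates 1 and 2, a fold change of 0.33 (SE 0.08, edgeR adjusted p = 0.0304). In EPRS1 and GARS1 homozygous replicate 1 lay nearer to the replicate 2 libraries than to the other replicate 1 libraries. RARS1, the arginyl enzyme, had 113 and 99.8 CPM in homozygous, 124 and 101 CPM in hemizygous and 117 and 95.4 CPM in wild-type replicates 1 and 2. Its fold change was 0.26 (SE 0.07, edgeR adjusted p = 0.0469), the nearest to the threshold among those called. MARS1, at 0.33 (edgeR adjusted p = 0.0562), fell just short.

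The gap between replicates 1 and 2 of the 8 called genes had a median of 0.29 on the log2 scale in homozygous cells. The median was 0.50 in hemizygous cells and 0.39 in wild-type cells, and all 8 gaps were above 0 in each genotype. These 8 genes were chosen from the same gaps, so their shared sign follows largely from the choice. Of all 35 members 25, 22 and 25 gaps were above 0 in homozygous, hemizygous and wild-type cells. Across the 35 members the gaps of hemizygous and wild-type cells had a Pearson correlation of 0.92, and those of homozygous cells correlated with them at 0.35 and 0.27. Over all genes these values were 0.74, 0.48 and 0.36. They describe genes that share libraries, and genes are not independent replicates. MARS1 is an example of such a difference: its gap was 0.07 in homozygous cells, 0.53 in hemizygous cells and 0.39 in wild-type cells.

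**Figure D5:**
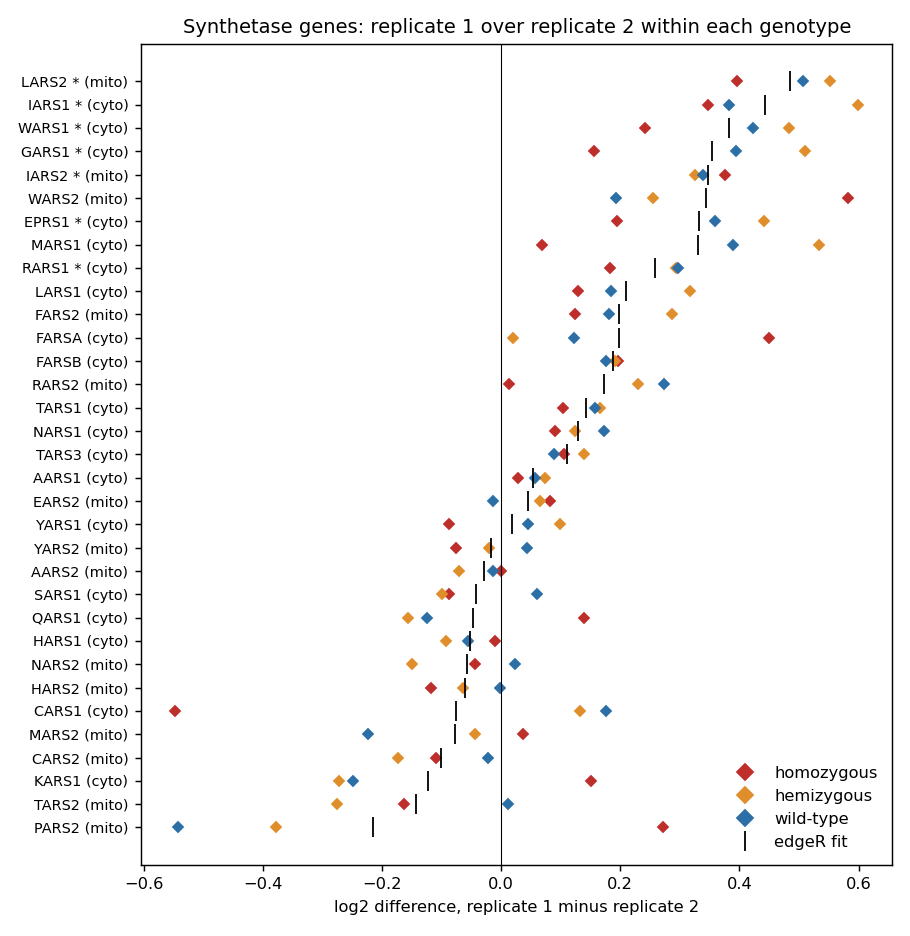
Log2 difference of replicate 1 minus replicate 2 (x axis) for 33 synthetase genes in homozygous (red), hemizygous (orange) and wild-type (blue) cells, ordered by the edgeR estimate (black tick). Genes marked * were called. The genes marked were chosen from these same gaps, and they lie above 0 in each genotype. MARS1 lies at 0.07 in homozygous cells, 0.53 in hemizygous cells and 0.39 in wild-type cells.

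By compartment, the median replicate fold change was 0.14 over the cytosolic genes, with 14 of 19 above 0, and -0.02 over the mitochondrial genes, with 7 of 15 above 0. The difference between compartments was not tested. The counts of genes called higher in each list stand against 12% of all genes. Class I enzymes had a median of 0.19 with 5 of 16 called (IARS1, RARS1, WARS1, IARS2 and LARS2). Class II enzymes had a median of 0.05 with 2 of 18 called (GARS1 among them). The class II median became -0.02 with upper-quartile and -0.01 with library size scaling, where the median over all genes became -0.08 and -0.07. The multisynthetase complex enzymes had a median of 0.23 with 3 of 8 called (EPRS1, IARS1 and RARS1). Its scaffolds AIMP1 at 0.12, AIMP2 at 0.12 and EEF1E1 at -0.16 were not called.

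Described ATF4 targets had a median replicate fold change of 0.18 with 4 of 12 called (EPRS1, GARS1, IARS1 and WARS1), and the other cytosolic genes 0.06 with 1 of 7 called (RARS1). Of all genes 12% were called higher and 20.5% called in either direction, and the calls in the lists that follow were all higher in replicate 1. Of the 15 other ATF4 pathway genes measured 2 were called, the amino acid transporters SLC7A5 at 0.77 (edgeR adjusted p = 0.0167) and SLC7A11 at 1.07 (edgeR adjusted p = 0.0440). ATF4 was at -0.13 and was not called. Among 10 partners in mitochondrial charging and translation GFM1, a mitochondrial elongation factor, was called at 0.50 (edgeR adjusted p = 0.0127). Among the 10 measured genes of cytosolic delivery and quality control XPOT, the exportin for transfer RNA, was called at 0.46 (edgeR adjusted p = 0.0154). Of the stromal markers COL1A1, COL12A1, POSTN and FBN1, 4 of the 7 measured, were called higher in replicate 1. THY1 went the other way, at 333 and 394 CPM in homozygous, 334 and 379 CPM in hemizygous and 420 and 468 CPM in wild-type libraries. Any part of stromal cells in the synthetase result was not tested.

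Enzymes for the same amino acid did not all share a direction. In the 12 pairs with a cytosolic and a mitochondrial member, 7 had the same sign of the replicate fold change. IARS1 and IARS2 were both called, at 0.44 and 0.35. MARS1 and MARS2 stood at 0.33 and -0.08.

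Among members with a divergent neighbour that has a row in the table, the pairs were EARS2 with UBFD1, FARS2 with LYRM4, HARS1 with HARS2, KARS1 with TERF2IP, RARS2 with ORC3, TARS1 with TARS1-DT and WARS1 with WDR25. KARS1, the lysyl enzyme, and TERF2IP, a telomere protein gene, start 108 bases apart. KARS1 had 299.8 and 270.1 CPM in homozygous, 234 and 283 CPM in hemizygous and 233 and 276 CPM in wild-type libraries. The log2 fold changes of KARS1 and TERF2IP were 0.16 and 0.12 in homozygous against wild-type libraries, and neither was called. In that comparison the signs differed for RARS2 and ORC3 (-0.09 and 0.12) and for WARS1 and WDR25 (-0.17 and 0.23). They were the same in the remaining pairs, but TARS1 (0.001), LYRM4 (-0.008) and EARS2 (-0.03) lay near 0, where a sign says little. By replicate number FARS2 and LYRM4 went opposite ways (0.20 and -0.24). TARS1-DT, the divergent transcript of TARS1, was called higher in replicate 1 by 0.90 (edgeR adjusted p = 0.0336), against 12% of all genes. TARS1-DT was low, at 1.92 and 1.40 CPM in homozygous, 2.35 and 0.97 in hemizygous and 1.97 and 1.00 in wild-type libraries. TARS1 stood at 0.14 and was not called.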

How the data were processed

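Per the labels' protocols, Ago2-bound RNA of 6 H1 libraries was sequenced by iCLIP. The authors deposited whole-number read counts per gene, not normalized. The genome build was hg38, per the submitters' processing notes. How reads were aligned and counted, and whether strand or molecular identifiers were used, is not given in the sources used here, so overlapping genes are uncertain (7 members overlap a counted gene). All 6 columns were matched to samples by their descriptions.

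The members and gene lists were chosen with earlier results of these data known, and divergent neighbours were listed after levels had been seen. Counts were scaled with TMM and filtered with filterByExpr (all 16199 genes kept). The test was the quasi-likelihood test of edgeR 4.0.16 (R 4.3.3), with a mean per genotype over all 6 libraries. The replicate comparison added the replicate number to genotype. P-values were adjusted over all genes by Benjamini-Hochberg, with calls at an adjusted p under 0.05. SEs were derived from each fold change and its F statistic. Alternatives were other scalings and filters, DESeq2 1.42.0, limma-voom 3.58.1, only the groups compared, a replicate block and each library left out. The procedure was tested on simulated data with 200 changed genes.

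Named were members called, members whose libraries did not overlap, those with the smallest p (5 per direction), amino acid pairs, dual enzymes and scaffolds. Naming by level per kilobase was not done, since no transcript lengths were given. YARS2 and AARS1 were named for their spread after their values were seen. Some members enter the counts and medians, but their own values are not reported here. Promoter sequences are from RefSeq.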

Additional observations from a re-analysis of the deposited data

How the results depend on the processing

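In the 4 genotype comparisons edgeR, limma-voom and DESeq2 called 0 members under every setting run. With a replicate block edgeR again called 0 members in each, and the lowest member adjusted p was 0.414, in homozygous against wild-type libraries. The labels give the replicate number no meaning. The gaps of all genes correlated at 0.48, 0.36 and 0.74 between genotypes, and the block gave 0 or 1 called genes per comparison, against 0 without it.

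The cytosolic median of hemizygous against wild-type was 0.0185 with RLE scaling, 0.0184 with DESeq2 and 0.0015 with library size, against 0.0141 with TMM. The medians over all genes were 0.0015, 0.0017, -0.0147 and -0.0026 in the same order. For both mutants against wild-type the cytosolic median was -0.0245 with upper-quartile scaling, where all genes had a median of 0.0092. For homozygous against hemizygous it was -0.0045 with upper-quartile and -0.0154 with library size scaling, where all genes had 0.0263 and 0.0153. The mitochondrial median of homozygous against wild-type was -0.0449 with upper-quartile scaling, where all genes had a median of 0.0248. In the replicate comparison upper-quartile and library size scaling gave 5 members called each, and 3449 and 3299 of all genes. The cytosolic medians were 0.0683 and 0.0738, and the mitochondrial medians -0.0914 and -0.0858. The median over all genes moved too, from -0.0024 with TMM to -0.0765 and -0.0709. Over all genes, 58.5% of the calls were higher in replicate 1 with TMM, 37.5% with upper-quartile and 39.6% with library size scaling. Leaving out a homozygous library gave 6254 or 6266 called genes, a wild-type library 1077 or 1140, and a hemizygous library 1 or 3, against 3322 with all libraries.

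With a library left out, the cytosolic medians ranged between -0.1144 and 0.0507 (homozygous against wild-type), -0.0625 and 0.0825 (hemizygous against wild-type), -0.0856 and 0.067 (both mutants against wild-type), and -0.1022 and 0.0413 (homozygous against hemizygous). The mitochondrial medians ranged between -0.0735 and 0.0313, -0.0529 and 0.0557, -0.0647 and 0.0375, and -0.0812 and 0.0289 in the same comparisons, and between -0.0225 and 0.0123 in the replicate comparison. Both compartments thus lay on either side of 0 in every genotype comparison. Members called by replicate ranged between 0 and 13. With a library left out, as few as 22 of the 35 members kept the sign of their fold change in homozygous against wild-type, 20 in hemizygous against wild-type, 17 in both mutants against wild-type and 17 in homozygous against hemizygous. Among those that turned were FARS2 (-0.2421 to 0.037) and RARS1 (-0.0594 to 0.2476, and -0.0436 without wild-type replicate 2) in hemizygous against wild-type, KARS1 (-0.0196 to 0.2349) and MARS1 (-0.3614 to 0.0219) in both mutants against wild-type, and EPRS1 (-0.4299 to 0.0127), GARS1 (-0.4496 to 0.062) and MARS1 (-0.4762 to 0.0597) in homozygous against hemizygous. The cause was not tested.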
